A study of Mus musculus with 8 samples.

Results

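The kynurenine pathway genes were followed in the striatum of adult female mice with 2 intact copies of Brd2 or with 1 intact copy and 1 gene-trap insertion. The set holds 10 genes: Ido1, Ido2, Tdo2, Afmid, Kmo, Kynu, Haao, Qprt, Ccbl1 (Kyat1 in current annotation) and Aadat. They were taken by gene name from all non-control probes of the array and account for 13 of its 39429 probes and 10 of its 30397 named genes or transcripts. The set was built around Ido1, which had the smallest p among the genes lower in heterozygous samples in an earlier analysis of these arrays. The genotype difference of Ido1 is therefore given as a description with no test. The other 9 genes were chosen for their place in the pathway.

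Brd2 encodes a BET-family bromodomain protein that binds acetylated histones. Both parents of all mice were heterozygous and came from a line backcrossed over generations to C57Bl/6J, and wildtype and heterozygous animals were told apart by PCR across the trap junction. There were 4 wildtype and 4 heterozygous samples on 4 two-colour arrays of 1 slide, and each array carried 2 samples of the same genotype. Replicates 1 and 3 of each genotype were labelled with Cy3 and replicates 2 and 4 with Cy5. The tissue label names the prefrontal cortex as well as the striatum, and the ages beyond adult and the position of the trap are not given in the sources used here. The design text calls the samples biological replicates and does not say whether each is 1 animal or a pool, so errors and p-values cover the spread among the 8 samples as hybridised. All 30 listed markers of striatal projection neurons could be tested, and so could 15 of 16 listed markers of cortical excitatory neurons. Being tested therefore does not tell striatum from prefrontal cortex.

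Kynurenine synthesis is the main route by which cells break down tryptophan. Ido1, Ido2 and Tdo2 encode the dioxygenases that open the indole ring, and Afmid encodes the formamidase that releases kynurenine. One branch then runs through Kmo, Kynu and Haao to quinolinic acid, an agonist of NMDA receptors, which Qprt turns into a precursor of NAD. In the other branch aminotransferases such as those encoded by Ccbl1 and Aadat make kynurenic acid, an antagonist at the same receptors. In brain, quinolinic acid is made mainly by microglia and kynurenic acid mainly by astrocytes. Ido1 is induced by interferon gamma in many tissues.

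Each value rests on a probe of 60 bases with a single spot per array. The starts of 5 probes are shown: that of Ido1, that of its neighbouring paralogue Ido2, and the 3 that were well above background in all samples. Only the first 30 bases from the 5′ end are printed, all in lower case because no part of them is singled out. Coordinates are those of the array files (mm9).
Ido1 (A_55_P2141152, chr8:25694613-25694672, minus strand): taaaatatatttatgattgaaatacaacaa
Ido2 (A_55_P2068350, chr8:25642929-25642988, minus strand): cgatgatgatgatgaagattatgataacta
Haao (A_55_P2074035, chr17:84230696-84230755, minus strand): ctgtccccatgtgcccagcagcctgacact
Ccbl1 (A_55_P2096652, chr2:30040788-30040847, minus strand): actcagtctgcgcctctataggttcttgta
Ccbl1 (A_66_P115996, chr2:30040668-30040727, minus strand): tccatggcttctccacttcttctcatgtga
The full Ido1 and Ido2 probes shared no run longer than 7 bases, although the genes lie next to each other. The Ido1 probe begins at base 1495 of its transcript and the Ido2 probe at base 2389. The 2 Ccbl1 probes lie 60 bases apart on the same strand.

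The brightness of the spots decided which steps of the pathway could be compared at all. The share of spots that the scanner software called well above background was 37.7% to 47.6% in the Cy3 samples and 65.9% to 75.5% in the Cy5 samples. Negative control spots had medians of 243.7 to 260.7 in Cy3 and 63.3 to 66.6 in Cy5 (mean spot intensity, linear). Brd2, the targeted gene, averaged 12.83 ± 0.22 in wildtype against 12.01 ± 0.38 in heterozygous samples (normalized log2, SD, n = 4), or 56.4% of the wildtype mean (exact two-sided permutation test, p = 0.0286, the smallest that 4 against 4 can give). In the limma fit over all genes its adjusted p was 0.435. The library labelled heterozygous replicate 3 kept 82.6% of the wildtype Brd2 mean before removal of the dye effect. With the dye effect removed it stood -0.40 from that mean (log2). It also had the lowest share of spots above background, so values without it are given beside several results.

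Of the 13 probes, 3 were well above background in all 8 samples, namely that of Haao and both of Ccbl1. Ido1 was above background in 7 samples. Afmid, Qprt and 1 of the 2 Kmo probes were above background in the 4 Cy5 samples and in none of the Cy3 samples. Ido2 was above background in 1 sample, the heterozygous replicate 2. The probes of Tdo2 and Aadat, both Kynu probes and the other Kmo probe were not well above background in any sample. A gene entered the test when 4 or more samples had one of its probes well above background, which left 6 of the 10 genes.

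**Figure D1:**
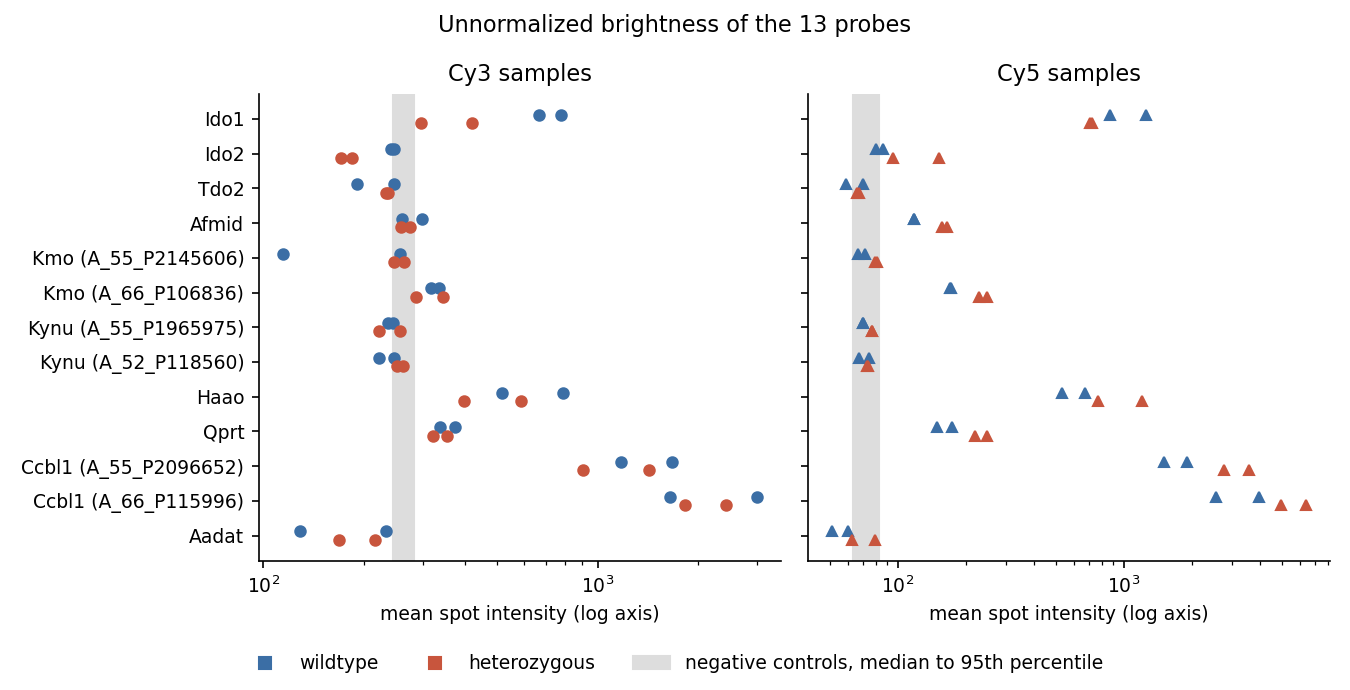
Mean spot intensity before normalization (log axis) of each of the 13 probes, with wildtype samples in blue and heterozygous samples in red, for Cy3 (left) and Cy5 (right); the grey band runs from the lowest median to the highest 95th percentile of the negative controls. The Ido1 points lie to the right of the band in Cy5, while in Cy3 the heterozygous points at 420.7 and 296.6 come close to it, and Tdo2, Kynu and Aadat stay near or below the band in both dyes.

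Ido1 was lower in heterozygous samples in both dyes. Its mean spot intensity in Cy3 was 665.5 and 778.7 for the wildtype pair and 420.7 and 296.6 for the heterozygous pair. In Cy5 the wildtype pair measured 871.5 and 1257.9 and the heterozygous pair 724.8 and 709.7. The groups did not overlap in either dye. In Cy5 the heterozygous samples were the brighter ones as a whole, with median spot intensities of 359.3 and 321.3 against 211.9 and 235 in wildtype. In Cy3 the medians were 356.4 and 288 in heterozygous against 328.5 and 362.4 in wildtype samples. The dimmest of these, heterozygous replicate 3, gave the Ido1 value of 296.6.

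After normalization Ido1 measured 9.67, 9.78, 9.52 and 10.08 in wildtype replicates 1 to 4 and 8.44, 8.79, 8.37 and 8.9 in heterozygous replicates 1 to 4 (log2). The highest heterozygous value lay below the lowest wildtype value. The means were 9.77 ± 0.14 and 8.63 ± 0.06 (SD after removal of the dye effect, n = 4), a difference of -1.14 (standard error, SE, 0.11), so the heterozygous level was 45.4% of wildtype. The difference was -1.19 among Cy3 samples and -1.09 among Cy5 samples. Choosing Ido1 on this contrast can overstate the size of its difference. These are bulk tissue values, in which fewer cells that express a gene and less RNA per cell cannot be told apart. On the scanner software's processed scale, from which background is subtracted, Ido1 measured 409.4, 418.4, 438.2 and 537.4 for wildtype, then 166.2, 177.8, 119.6 and 188.1 for heterozygous samples (linear). After each sample was further scaled to its 75th percentile of processed signal, the heterozygous level was 33.4% of wildtype.

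The groups of Ido1 values did not overlap after removal of the dye effect. The same held, in the lower direction, for 4.93% of the 18596 genes with values in every sample, and since Ido1 was chosen on this contrast nothing is read from that share. No gene of the 19830 tested passed an adjusted p under 0.05 in limma with Benjamini-Hochberg adjustment (0%), and 1705 genes (8.6%) had an unadjusted p under 0.05. The single Ido1 probe was not well above background in the library labelled heterozygous replicate 3. Without that library the Ido1 difference was -1.11.

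**Figure D2:**
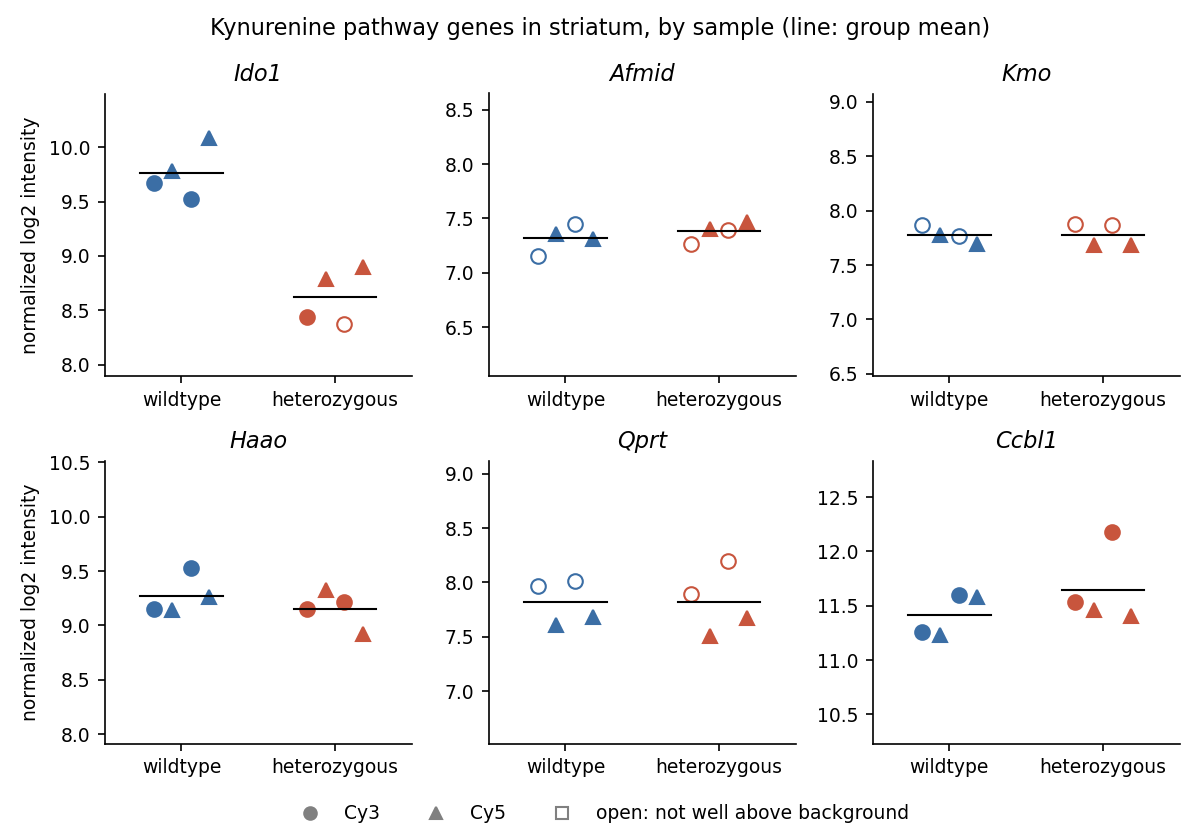
Normalized log2 intensity of the 6 genes in the test, by genotype; each point is a sample (circles Cy3, triangles Cy5), open points were not well above background, lines are group means, and every panel spans the same range of log2 units. The Ido1 points form separate groups, from 9.52 to 10.08 and from 8.37 to 8.9, and the points of the other 5 genes overlap between genotypes.

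The other enzymes of the same first step, Ido2 and Tdo2, gave no measurable level. Ido2 is a paralogue of Ido1 with weak tryptophan-degrading activity. Its Cy5 intensities were 80.1 and 86.3 for wildtype and 152.8 and 95.3 for heterozygous samples, and only the value of 152.8 was well above background. In Cy3 it was 245.5 and 240.3 against 170.8 and 184.5, at or under the negative controls. The heterozygous mean lay under the lowest level that could be told from background in wildtype, so no fold is given. Tdo2, the dioxygenase best known from liver, ranged from 59.3 to 69.9 in Cy5 and from 190.1 to 246.5 in Cy3, around or under the medians of the negative controls.

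Afmid, whose product releases kynurenine, was measured in Cy5 only. Its intensities there were 117.7 and 118.4 for wildtype and 157.8 and 165.9 for heterozygous samples. After normalization the Cy5 values were 7.36 and 7.31 against 7.4 and 7.47, which did not overlap. The groups overlapped over all 8 samples only through Cy3 values, which were not well above background. The difference was 0.06 (SE 0.106, limma adjusted p = 0.879), and 0.10 in the Cy5 samples alone.

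The branch to quinolinic acid could be read at Haao and, less well, at Kmo and Qprt. Haao encodes the dioxygenase that makes the direct precursor of quinolinic acid. It measured 9.15, 9.14, 9.53 and 9.26 in wildtype replicates 1 to 4 and 9.15, 9.33, 9.22 and 8.92 in heterozygous replicates 1 to 4 (normalized log2). Wildtype and heterozygous values overlapped. The difference was -0.12 (SE 0.136, limma adjusted p = 0.805), with a 95% interval from -0.43 to 0.20, which does not reach the size of the Ido1 difference.

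Kmo encodes the monooxygenase that commits kynurenine to this branch. The probe that entered the test measured 7.78 and 7.69 in the wildtype Cy5 samples and 7.68 in each of the heterozygous Cy5 samples. The difference over all samples was 0.00 (SE 0.0914, limma adjusted p = 0.995, 95% interval -0.21 to 0.21) and -0.06 in Cy5 alone. The other Kmo probe, 272 bases away, was not well above background anywhere. Qprt, which removes quinolinic acid toward NAD, measured 7.61 and 7.68 for wildtype and 7.51 and 7.67 for heterozygous Cy5 samples. Its difference was 0.00 (SE 0.109, limma adjusted p = 0.999, 95% interval -0.25 to 0.25) and -0.05 in Cy5 alone. The intervals of Afmid, Kmo and Qprt include Cy3 values that were not well above background. With processed signals scaled to the 75th percentile their differences were less precise, at 0.27 (SE 0.234), -0.26 (SE 0.225) and -0.10 (SE 0.219) in the same order. Kynu, whose enzyme cleaves kynurenine and its hydroxylated form, ranged from 67.4 to 76.9 in Cy5 and from 221.5 to 261 in Cy3 over its 2 probes, not well above background in any sample.

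Of the aminotransferases that make kynurenic acid, Ccbl1 was measured in every sample and Aadat in none. At the probe that entered the test Ccbl1 measured 11.26, 11.23, 11.6 and 11.58 in wildtype replicates 1 to 4. The heterozygous values were 11.53, 11.46, 12.18 and 11.41. The value of 12.18, from the library labelled heterozygous replicate 3, lay above all others, and the rest overlapped with wildtype. The difference was 0.23 (SE 0.184, limma adjusted p = 0.717, 95% interval -0.20 to 0.65), or 0.06 without that library. The nearby probe differed by 0.10, with 11.03 in that library and 10.51 to 10.74 in all others. The share of spots above background in that library, 37.7%, was the lowest of all samples, and its part in the Ccbl1 value was not tested. Aadat ranged from 51.1 to 79.5 in Cy5 and from 128.6 to 232.4 in Cy3, no higher than the 95th percentiles of the negative controls.

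Of the 5 tested genes besides Ido1, Haao had a negative difference, Afmid and Ccbl1 had positive ones, and Kmo and Qprt were at 0.00. The median of the 5 was 0.00 beside -0.01 over all genes tested, of which 52.2% were lower in heterozygous samples. None of the 5 passed the threshold (0% of all genes did). None had groups that did not overlap after removal of the dye effect (8.66% of all genes did, in either direction). None had an unadjusted p under 0.05, which 8.6% of all genes had. Their smallest adjusted p in limma was 0.717. The largest of these differences without regard to sign was 0.23 for Ccbl1, against -1.14 for Ido1. Since 4 genes could not be measured, the statement covers the ring-opening step through Ido1 alone, and the kynurenic acid arm through Ccbl1 alone among the genes of the set.

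**Figure D3:**
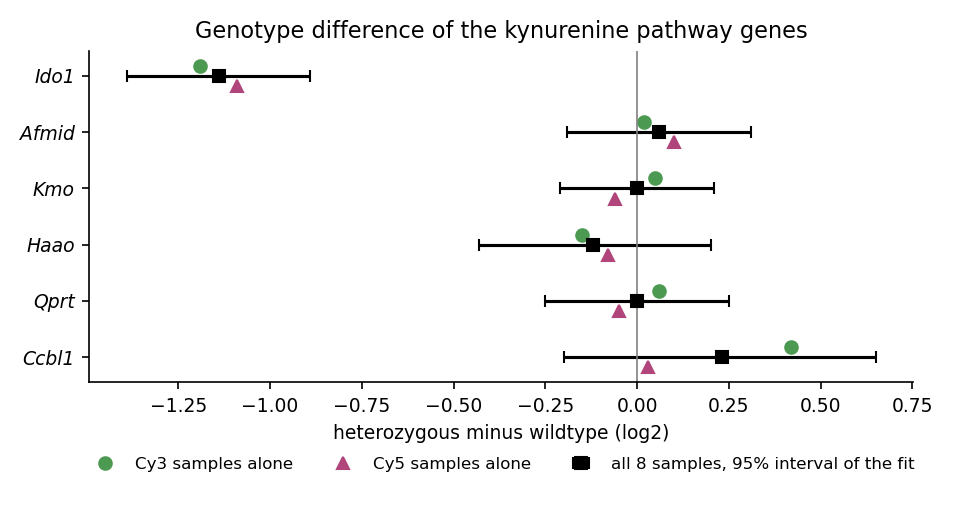
Heterozygous minus wildtype difference (log2) of the 6 genes in the test, with squares and bars for the estimate over all 8 samples and its 95% interval in the limma fit, circles for the Cy3 samples and triangles for the Cy5 samples alone. The Ido1 values lie between -1.19 and -1.09, and the intervals of the other 5 genes include 0. Ido1 was chosen on this contrast, so its interval is a description only.

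Genes around the pathway were read from lists, and 0 of their members passed the threshold in limma in either direction. Among the other aminotransferases and the side-branch decarboxylase, 2 of 3 could be tested. Kyat3, a further kynurenine aminotransferase, differed by -0.15 (SE 0.118) and Got2, the mitochondrial aspartate aminotransferase, by 0.16 (SE 0.157). Neither had an unadjusted p under 0.05, which 8.6% of all genes had. Without the library labelled heterozygous replicate 3, 1 of the 2 did, as did 2260 of all 19825 genes.

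Of 15 genes for tryptophan transport and its other fates, 11 were tested, and 3 had an unadjusted p under 0.05 in the higher direction, against 4.35% of all genes. These were Slc3a2, the shared heavy chain of large amino acid transporters, at 0.36 (SE 0.103, limma adjusted p = 0.469), Slc7a8, a light chain that pairs with it, at 0.25 (SE 0.104) and Il4i1, a secreted amino acid oxidase, at 0.34 (SE 0.123). Il4i1 was above background in 2 samples of each genotype. Slc7a5, the light chain best known for tryptophan uptake, differed by -0.05 (SE 0.337). The list median was 0.00, and 0.10 without the library labelled heterozygous replicate 3. The genes for the serotonin-forming hydroxylases, Tph1 and Tph2, did not enter the test.

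Among 16 receptors and targets of kynurenine metabolites, 13 were tested, with 7 negative and 6 positive differences and a median of 0.00. An unadjusted p under 0.05 was found for 2 in the lower direction (4.25% of all genes) and for 1 in the higher direction (4.35%). Without the library labelled heterozygous replicate 3, 1 of the 13 had such a p, as did 2260 of all 19825 genes. In that setting 9 differences were negative and the median was -0.04. Tiparp, which the aryl hydrocarbon receptor induces when ligands such as kynurenine bind it, differed by -0.51 (SE 0.184, limma adjusted p = 0.522). The receptor gene itself, Ahr, differed by -0.18 (SE 0.147). Its classic targets Cyp1a1, Cyp1b1 and Ahrr did not enter the test. Grin1, the subunit that all NMDA receptors need, differed by 0.37 (SE 0.158) and Grin3b, a minor subunit, by -0.40 (SE 0.171), both with an adjusted p of 0.575 in limma.

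Of 19 genes of NAD synthesis and use, 17 were tested. An unadjusted p under 0.05 was found for 2, in opposite directions, and for 8.6% of all genes. Nmnat3, a mitochondrial NAD-forming enzyme, differed by -0.50 (SE 0.143, limma adjusted p = 0.467). Nadsyn1, which completes NAD from the precursor that Qprt feeds, differed by 0.31 (SE 0.105, limma adjusted p = 0.51). Sirt2, an NAD-dependent deacetylase, differed by 0.34 (SE 0.148). The list median was 0.07, and -0.05 without the library labelled heterozygous replicate 3. Without that library 3 of the 17 had an unadjusted p under 0.05, as did 2260 of all 19825 genes.

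Listed regulators of Ido1 and genes of the interferon gamma response were mostly positive by their estimates. The list also holds genes that restrain this response, such as Socs1 and Socs3, so the count gives no direction for Ido1 induction. Of 38 listed genes 29 were tested, 21 with a positive and 8 with a negative difference, and the median was 0.15 beside -0.01 over all genes. None had an unadjusted p under 0.05, against 8.6% of all genes. The interferon-inducible GTPase genes Iigp1 and Irgm1 differed by -0.23 (SE 0.104) and 0.86 (SE 0.42), the co-stimulatory gene Cd80 by 0.27 (SE 0.125), and Irf1, a transcription factor gene of this response, by 0.29 (SE 0.153). Set against the wildtype mean, the list as a whole stood at -0.03, 0.13, 0.30 and 0.20 from the first to the last heterozygous replicate and at -0.04 to 0.06 in wildtype. Ifng itself, Tnf, Il6, Cxcl9 and Cxcl10 did not enter the test. Without the library labelled heterozygous replicate 3 the median was 0.10.

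Marker lists of cell types showed which other differences ran beside that of Ido1. Relative to the wildtype mean and with the dye effect removed, Ido1 stood at -1.13, -1.17, -1.20 and -1.06 in heterozygous replicates 1 to 4. The 30 striatal projection neuron markers together stood at 0.11, -0.59, -0.93 and -0.16 in the same samples and at -0.08 to 0.08 in wildtype. Each of the 30 was lower in heterozygous samples by its estimate, and their median was -0.38. None was past the threshold, and neither was any other gene tested. With the library labelled heterozygous replicate 3 left out, 24 of the 30 were lower and the median was -0.15. In that setting 6 of the 30 had an unadjusted p under 0.05, as did 2260 of all 19825 genes. The Ido1 value of -1.20 came from the spot that was not well above background, and has no order relative to the other 3. Brd2 stood at -1.02, -0.86, -0.40 and -1.02 in the same samples. The part of the striatal markers and of the Brd2 level in the Ido1 difference was not tested.

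Cortical excitatory neuron markers, of which 15 of 16 were tested, stood at 1.23, 1.03, 0.73 and 0.43 in heterozygous replicates 1 to 4 and at -0.17 to 0.42 in wildtype. Of the 15, 1 was lower in heterozygous samples by its estimate. The median difference of 0.83 was 0.86 without the library labelled heterozygous replicate 3. Without it 8 of the 15 had an unadjusted p under 0.05, as did 2260 of all 19825 genes. Slc17a7 and Tbr1 were each above background in 2 wildtype and 4 heterozygous samples. Choroid plexus and meningeal markers, all 12 tested, stood at -0.32, 0.51, 1.58 and 0.58, against -0.23 to 0.14 in wildtype. Their median difference of 0.59 was 0.12 without the library labelled heterozygous replicate 3. Several of the 12 were dim in part of the samples. For Aqp1, 1 wildtype spot and 3 heterozygous spots cleared background, for Kcnj13 2 and 3, and for Slc6a13 3 and 4. Kl and Folr1 each had 4 and 3, and Col1a1 had 2 and 2. The level of this list therefore includes spots that were not well above background. Microglia and macrophage markers, 14 of 17 tested, stood at -0.22 to 0.00 in heterozygous and -0.29 to 0.34 in wildtype samples, and their median difference of -0.14 was 0.06 without the library labelled heterozygous replicate 3. The perivascular macrophage markers Mrc1, Cd163 and Lyve1 were not above background in enough samples to be tested. Dendritic and blood cell markers, 11 of 15 tested, stood at -0.29 to 0.07 in heterozygous and -0.11 to 0.09 in wildtype samples, and the dendritic cell markers Xcr1 and Clec9a were not tested for the same reason. Astrocyte, oligodendrocyte and vascular lists had median differences of -0.01, 0.28 and 0.09, and of -0.07, 0.16 and 0.19 without the library labelled heterozygous replicate 3. The part of the cortical and choroid markers in the Ido1 difference was not tested.

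**Figure D4:**
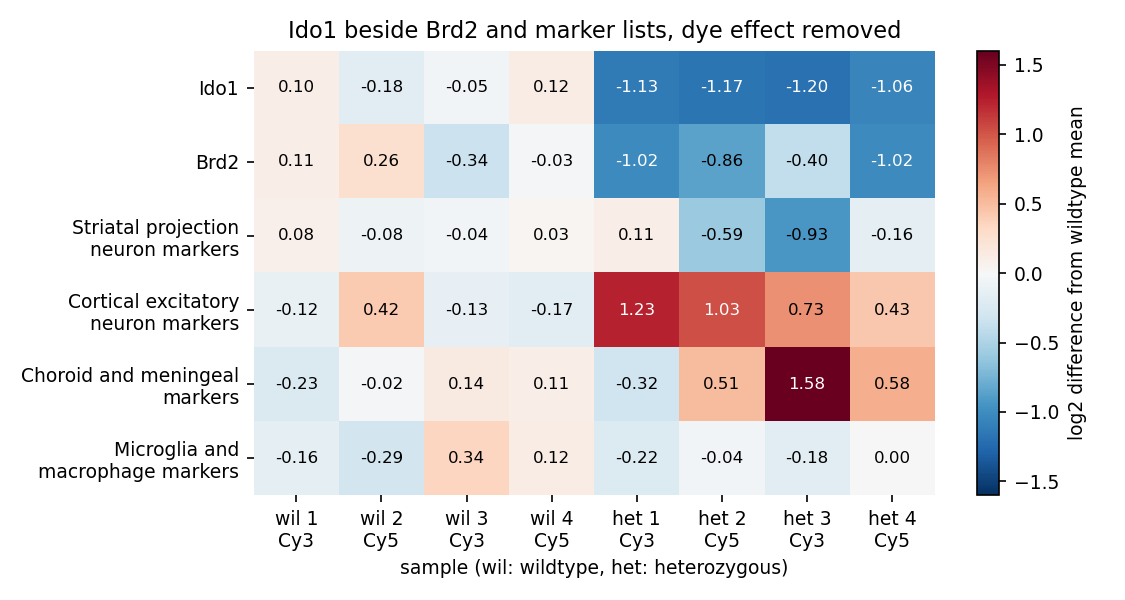
Log2 difference of each sample from the wildtype mean, with the dye effect removed, for Ido1, Brd2 and the mean of 4 marker lists; columns are samples with their dye, and colours run from blue (lower) to red (higher). Ido1 is between -1.20 and -1.06 in every heterozygous sample, while the striatal list runs from -0.93 to 0.11 across them.

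The genes whose profile over the 8 samples was most like that of Ido1 were found by Pearson correlation of log2 values after each dye mean was subtracted, among 14731 named genes. They were Dguok, a mitochondrial deoxyguanosine kinase gene (r = 0.977), Pnp2, a purine nucleoside phosphorylase gene (0.977), Vcam1, an adhesion molecule gene of vessels (0.972), Ccno, a cyclin gene (0.971), and Mzf1, a zinc finger gene (0.961). All 5 were lower in heterozygous samples, with differences of -0.23, -0.71, -0.40, -0.47 and -0.64 in the same order. The points share arrays and genotype, and a gene that separates the genotypes will rank high by this measure. No other gene of the kynurenine set was among the 5.

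The genomic neighbours of Ido1 gave 1 positive and 1 negative difference, neither past the threshold. In the RefSeq order of chromosome 8 the nearest 3 coding genes on one side are Ido2, Tcim and Zmat4, and on the other Adam18, Adam3 and Adam5. Zmat4, a zinc finger gene, differed by 0.75 (SE 0.252, limma adjusted p = 0.509) and Adam5 by -0.15 (SE 0.136). Adam5 was above background in 2 samples per genotype, and the remaining 4 neighbours did not enter the test.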

How the data were processed

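Spot intensities were extracted by the authors with Agilent Feature Extraction 10.7.3.1 from array design 026655, per the file headers, and processed intensities were background-subtracted and dye-normalized by that software. Both samples of an array were deposited with the same file, and each was read from its own channel. The deposited value table holds a ratio of background-subtracted median intensity to the column median, found by matching every listed spot (relative tolerance 0.0001), and served as an alternative.

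For mean intensities, limma's normexp background correction (offset 50) came first, then loess within and Aquantile between arrays (limma 3.58.1, R 4.3.3, statmod 1.5.0), and the channels were split into log2 values of the deposited intensities. The 1377 control spots and outlier spots (230 to 978 per sample) were left out. The brightest of the probes well above background in at least 4 samples stood for a gene (19830 genes). Names came from the RefSeq table of GRCm38.p6. limma fitted genotype and dye with array as a random block (consensus correlation 0.00956), with Benjamini-Hochberg adjustment over all genes. The fit was also run on simulated data with independent errors and no array effect. That run therefore does not cover array effects. Each array held 1 genotype, so array and genotype cannot be fully told apart. The number of arrays limits the precision.

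Genes named were the 10 members, Brd2, the 3 smallest p of each pathway list, 3 neighbours per side and the 5 genes most like Ido1. Slc7a5, Ahr, Irf1, Socs1, Socs3, Slc17a7, Tbr1, Aqp1, Kcnj13, Slc6a13, Kl, Folr1 and Col1a1 were added after their values were seen. Members and lists were chosen with earlier results of these data known. Same-numbered samples share a dye; after removal of dye means their deviations correlated at 0.014 to 0.098, so the numbers were not taken as pairs. Alternatives changed the background correction, normalization, intensity column, filter, probe rule, dye, blocks and samples. Figures were drawn with matplotlib 3.10.9.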

Additional observations from a re-analysis of the deposited data

Results flagged for a closer look

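Of 42 groups of 4 values checked for a sample far from the others, 2 stood out, and chance gives about 1 in 20. In wildtype the mean level of the receptors and targets of kynurenine metabolites was set apart by replicate 3, at -0.09 against 0.02 to 0.04 in the others, a gap of 0.838 of the group's range. The cortical excitatory neuron markers were set apart in wildtype by replicate 2, at 0.42 against -0.17 to -0.12, a gap of 0.913 of the range. No kynurenine pathway gene was among them.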

How the results depend on the processing

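Ido1 was lower in heterozygous samples in all 21 alternatives that gave a value. Ido1 was chosen on this contrast in the same samples, so its direction under the alternatives is no test of the difference. Its difference moved beyond the spread between replicates to -1.58 with the processed signals, -0.98 with loess within arrays only and -1.24 with quantile normalization without loess, and leaving out 1 sample gave -1.21 to -1.09. Ido1 had no value among probes well above background in all 8 samples. No other member passed the threshold in any alternative. With the replicate block the Ido1 difference was -1.14 and Haao was -0.12, and the block changed no call. The number of other members with a negative difference was 2, with Kmo counted as negative and Qprt as positive although both round to 0.00. It was 3 with processed signals and in Cy5 alone, 0 with loess only, 1 with quantile normalization, with offset 16, with the value table, in Cy3 alone and among probes above background in all 8 samples (of 2 measured there), and 1 to 3 on leaving out 1 sample. Haao turned to 0.06 with loess only. With processed signals Kmo was -0.26 and Afmid 0.27, both on the same side of 0 as before. Kmo turned to 0.08 with loess only, 0.04 with quantile normalization, 0.00 with offset 16, 0.02 with the value table and 0.05 in Cy3, and lay between -0.03 and 0.03 without 1 sample. Qprt turned to -0.10 with processed signals and -0.05 in Cy5, and lay between -0.07 and 0.06 without 1 sample. The count of all genes past the threshold stayed at 0 except in Cy5 alone, where 1 gene passed, Sv2c (-3.49, SE 0.126, limma adjusted p = 0.0115), named after its value was seen. Brd2 differed by -0.78 (exact permutation p = 0.0571) with processed signals and by -0.96 (exact permutation p = 0.114) with the value table, and by -1.01 to -0.72 on leaving out 1 sample (exact permutation p = 0.0286 to 0.0571). The causes were not tested. Signal over background limits what could be measured: Tdo2, Kynu and Aadat were not well above background in any sample, Ido2 was in 1 sample, and Afmid, Kmo and Qprt were not in Cy3.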
